A study of Rattus norvegicus with 16 samples.

Results

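Transcripts of 3 subunits of the N-methyl-D-aspartate (NMDA) glutamate receptor were followed in the fetal rat suprachiasmatic nuclei (SCN), the hypothalamic site of the central circadian clock. The genes were Grin1 (ENSRNOG00000011726), Grin2a (ENSRNOG00000033942) and Grin2b (ENSRNOG00000008766), taken by Ensembl identifier from a table of 32883 genes. They were chosen by name, with earlier results of these data known. From the same libraries, the study had already listed Grin1 and Grin2b among its genes rhythmic in both groups. Its differentially rhythmic genes included an entry printed as Gria3/2a, and whether this means Grin2a is not stated. The rhythm results below come from the same libraries, so for none of the 3 genes are they independent of the study's calls. All 3 were among the 13685 genes that had a library-size-scaled read count (CPM) of 1.5 or more in 3 or more libraries, and each reached that level in all 16 libraries.

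The NMDA receptor is a glutamate-gated channel that passes calcium when glutamate is bound and the membrane is depolarised, because magnesium blocks the pore at rest. Every functional receptor contains the product of Grin1, which binds the co-agonists glycine and D-serine. The products of Grin2a and Grin2b bind glutamate and set the kinetics of the channel. Grin2b predominates in the embryonic brain, whereas Grin2a is known to increase mainly after birth. In the adult SCN, NMDA receptors receive glutamate from the retina and take part in resetting of the clock by light.

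RNA-Seq was done on fetal SCN of Wistar rats, with 8 libraries from sham-operated mothers fed ad libitum (Group A) and 8 from mothers with lesioned SCN and time-restricted feeding (Group B). Mothers of both groups were kept in constant darkness from the surgery onward, so surgery and darkness were common to them, whereas lesion and feeding schedule always went together and cannot be told apart. Each library pooled the SCN of fetuses from one litter, and each group had 1 litter at each circadian time (CT) from CT0 to CT21, every 3 h. CT12, the start of subjective night, was set by the onset of free-running activity in Group A and of food-related activity in Group B, so the time scale rests on a different behaviour in each group. The sample labels give embryonic day 17 and a pool of 8 fetuses, while the study's methods describe a later embryonic day and a varying pool size in Group B. The SCN were removed with a tissue punch, so a library holds the SCN together with whatever tissue the punch took, and lower RNA per cell cannot be told apart from fewer cells of a type. Markers of the SCN and of other cell types were not analysed here.

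Total counts per library lay between 10746066 and 12781966 for Group A. For Group B they lay between 10047500 and 18738585, the deepest library being that of CT9. By mean correlation of log2 CPM with the other libraries of its group, the CT3 library of Group B was lowest (0.976), while the other 15 libraries lay between 0.979 and 0.984. Results that moved by over 1.5 times without it are given with and without it, apart from those under 0.1 on the log2 scale or in r. As there was 1 library per group and time, the error of a time course is the scatter of litters around a fitted curve.

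Grin1, the obligatory subunit, followed a similar time course in both groups, with lower values early in the subjective day and higher values in the subjective night. In Group A, Grin1 stood at 118 CPM at CT0, 115 at CT3, 124 at CT6, 134 at CT9, 144 at CT12, 152 at CT15, 147 at CT18 and 138 at CT21. In Group B, it stood at 135 CPM at CT0, 121 at CT3, 140 at CT6, 142 at CT9, 156 at CT12, 147 at CT15, 152 at CT18 and 163 at CT21. The lowest value fell at CT3 in both groups, whereas the highest fell at CT15 in Group A and at CT21 in Group B. These values rest on 1309 to 2651 counts per library. The coefficient of variation over the 16 libraries was 10.1%, against 2.46% from counting alone.

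Of the 3 members, Grin1 alone had an entry in the RefSeq promoter table used here. The 250 bases before its annotated start (GRCr8, chr3:28528755-28529004, minus strand) are shown because Grin1 was also the member that passed the test of a common 24-h rhythm. Capitals mark TGACG, the core of the cAMP response element, on either strand.
Grin1: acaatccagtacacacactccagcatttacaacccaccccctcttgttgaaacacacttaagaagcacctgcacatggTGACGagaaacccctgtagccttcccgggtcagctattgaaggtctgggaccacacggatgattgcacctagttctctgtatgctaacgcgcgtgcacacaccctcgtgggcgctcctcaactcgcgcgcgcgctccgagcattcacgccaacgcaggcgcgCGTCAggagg

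TGACG occurred at 2 places, 172 and 10 bases before the start, the latter on the opposite strand as CGTCA. It is a common string, held by 18.2% of 33469 promoters in windows of the same 250 bases. The canonical E-box CACGTG (5.59% of promoters), the ROR element core AGGTCA (14.1%), the D-box core TTATGTAA (0.828%) and the GC box GGGCGG (30.5%) were not found on either strand of this window. The 2 matches of TGACG do not overlap. A match is a string of letters and not a measured binding site, and the counts were made on another genome build (rn6), so which start was used in the fetal SCN was not measured.

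Grin2b, the glutamate-binding subunit typical of the embryonic brain, had its lowest value at CT6 in both groups. In Group A, Grin2b stood at 221 CPM at CT0, 176 at CT3, 139 at CT6, 172 at CT9, 231 at CT12, 195 at CT15, 202 at CT18 and 184 at CT21. In Group B, it stood at 203 CPM at CT0, 185 at CT3, 155 at CT6, 188 at CT9, 192 at CT12, 198 at CT15, 213 at CT18 and 247 at CT21. Group B thus climbed from CT6 to CT21, while Group A had high libraries at CT0 and CT12 and a middling one at CT21. The counts ranged from 1673 to 3493 per library. The coefficient of variation was 14.0%, against 2.09% from counting.

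Grin2a, the glutamate-binding subunit typical of later development, was present at 21 to 67 counts per library. In Group A, Grin2a stood at 4.40 CPM at CT0, 4.23 at CT3, 5.58 at CT6, 3.21 at CT9, 2.61 at CT12, 2.16 at CT15, 2.81 at CT18 and 2.26 at CT21. In Group B, it stood at 4.08 CPM at CT0, 2.22 at CT3, 1.63 at CT6, 1.88 at CT9, 2.005 at CT12, 6.02 at CT15, 3.45 at CT18 and 3.15 at CT21. The high values lay in the subjective day in Group A, and at CT0 and from CT15 onward in Group B. At this depth a single Grin2a value is imprecise. The lowest library of Group A, with 27 counts at CT15, carries an exact 95% Poisson interval of 17.8 to 39.3 counts. The highest of Group B, with 67 counts at CT15, carries one of 51.9 to 85.1. Both are extremes of their group and raw counts at unlike depth, so these intervals do not compare the groups. Such intervals cover counting error only. The coefficient of variation was 40.7%, against 16.3% from counting. CPM are not scaled to transcript length, so the order of the subunits in CPM is not an order of transcript number.

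**Figure D1:**
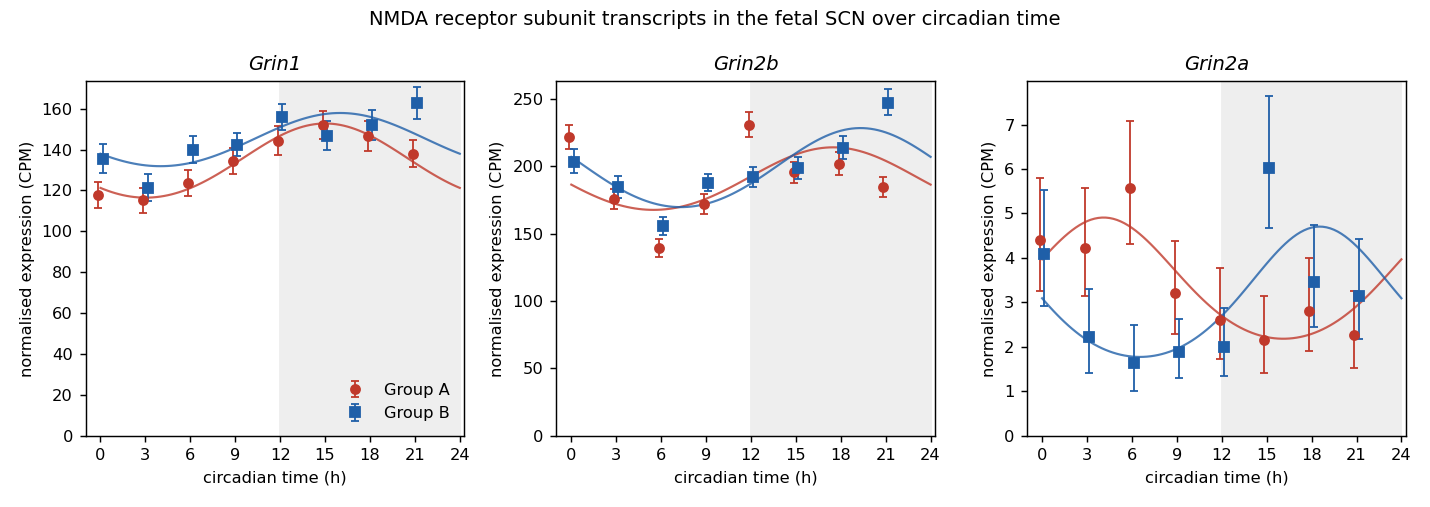
Normalised expression (CPM, linear axis from 0) of Grin1, Grin2b and Grin2a against circadian time in hours, with Group A as red circles and Group B as blue squares, exact 95% Poisson intervals as bars, the cosine fitted to each group as a curve and subjective night shaded. Grin1 is lowest at CT3 in both groups, Grin2b is lowest at CT6 in both groups, and the Grin2a curves of the groups peak at CT4.11 and CT18.5.

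To find whether the subunits followed a 24-h rhythm shared by the groups, a common cosine was fitted with edgeR's quasi-likelihood F test over all tested genes. Grin1 was the only member that passed, and 47 of 13685 genes did so (0.343%). Its fitted peak-to-trough difference was 0.32 ± 0.056 on the log2 scale (SE, 16 libraries), a fold of 1.25, with a peak at CT15.4 ± 0.656 h (edgeR, adjusted p = 0.0321, rank 24 of 13685 by p). For Grin2b the peak-to-trough difference was 0.38 ± 0.098, of similar size but with more scatter, and its peak was at CT18.5 ± 0.982 h (edgeR, adjusted p = 0.177). DESeq2 gave an adjusted p of 0.000389 for Grin1 and of 0.0406 for Grin2b, so Grin2b passed with that tool, which called 251 genes. Grin2a had a common peak-to-trough difference of 0.36 ± 0.38, no larger than its error (adjusted p = 0.897). Unadjusted p was below 0.05 for Grin1 and Grin2b, and for 12% of all genes.

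The call for Grin1 depended on single libraries, as did the number of genes called, which ranged from 1 (without CT3 or CT18 of Group A) to 92 (without CT15 of Group A). When each library was left out in turn, its peak-to-trough difference stayed between 0.296 and 0.370 and its peak between CT14.8 and CT15.7, while the adjusted p from edgeR ranged from 0.0183 to 0.106. The call was lost without any of 9 libraries, with an adjusted p of 0.106 without CT3 of Group A, 0.0623 without CT9 of Group A and 0.0747 without CT18 of Group A. In Group B, the adjusted p was 0.0784 without CT0, 0.103 without CT3, 0.0516 without CT6, 0.0502 without CT9, 0.0738 without CT12 and 0.0602 without CT18. The other 7 omissions kept it. For Grin2b the adjusted p over the 16 omissions ranged from 0.0547 to 0.332.

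**Figure D2:**
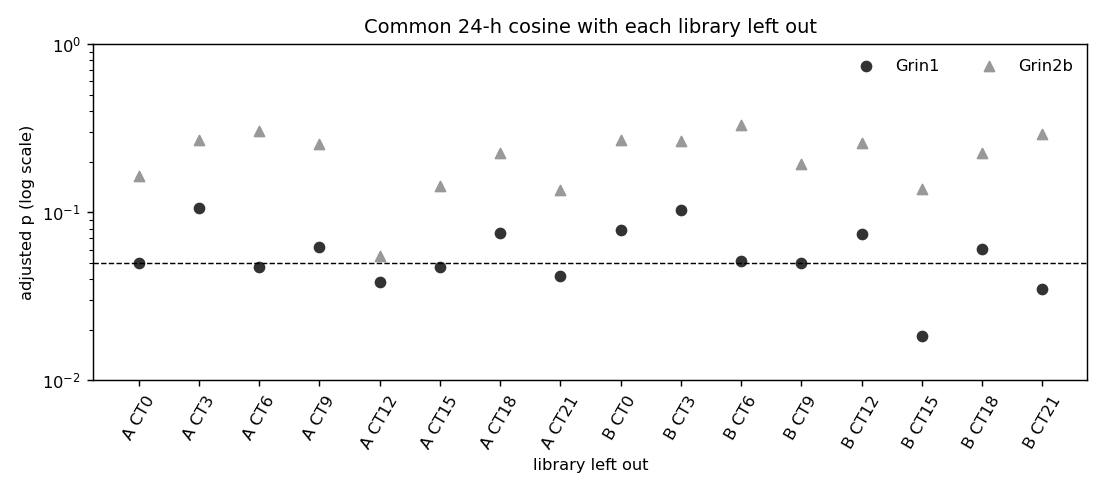
Adjusted p of the common 24-h cosine (edgeR, log axis) for Grin1 (dark circles) and Grin2b (grey triangles) with each of the 16 libraries left out, named by group and circadian time, and the threshold of 0.05 dashed. Grin1 lies above the threshold without 9 of the libraries, most without CT3 of Group A (0.106), and Grin2b lies above it throughout.

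A straight line over CT0 to CT21 was fitted in place of the cosine. For Grin1 the line rose by 0.34 ± 0.062 on the log2 scale over that span (edgeR, adjusted p = 0.0110). This fit called 78 of 13685 genes. For Grin2b, whose minimum lay at CT6, the line gave 0.20 ± 0.13 over the span (adjusted p = 0.537). The methods place the sampling over about a day of fetal age, without giving the age of each litter. The line was fitted on circadian time, so a trend with age was not tested. A change with age and one with circadian time cannot be told apart for any member. With the first principal component of the libraries as a covariate, Grin1 had a peak-to-trough difference of 0.31 ± 0.059 (edgeR, adjusted p = 0.0271). That fit called 137 of 13685 genes, more than the 47 of the main fit, and Grin2a and Grin2b did not pass in it.

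Whether the time course differed between the groups was tested by the group terms of the cosine. The test passed for 0 of the 3 members and 0 of 13685 genes (0%, edgeR), and at an unadjusted p below 0.05 for Grin2a only, against 6.11% of genes. The cosines of Grin2a differed by 2.45 ± 0.57 on the log2 scale from peak to trough (rank 26 of 13685 by p), with an adjusted p of 0.806 in edgeR and 0.291 in DESeq2, which called 4 genes. The fitted peak of Grin2a was at CT4.11 ± 1.30 h in Group A, with a peak-to-trough difference of 1.17 ± 0.40 (adjusted p = 0.610). In Group B the peak was at CT18.5 ± 1.10 h, with a difference of 1.41 ± 0.40 (adjusted p = 0.325). Without CT15 of Group B, its highest library, the cosines of Grin2a differed by 1.90. The opposed curves of Grin2a did not pass correction over the genes tested.

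For Grin1 and Grin2b the fitted peaks of the groups fell at neighbouring times. Grin1 had a peak-to-trough difference of 0.39 ± 0.079 with a peak at CT15.0 in Group A (1 gene called in all, 0.00731%), and 0.26 ± 0.079 with a peak at CT16.0 in Group B (13 genes called, 0.095%). These did not pass by themselves in edgeR (adjusted p = 0.439 and 0.357). DESeq2 gave an adjusted p of 0.0342 in Group A, where it called 24 of 13685 genes. Without CT3 of Group B, its lowest library, the Group B value of Grin1 was 0.17 (adjusted p = 0.761). Grin2b had 0.35 ± 0.14 with a peak at CT17.5 in Group A and 0.43 ± 0.14 with a peak at CT19.3 in Group B (adjusted p = 0.675 and 0.395). Without CT6 of Group A, its lowest library, the Group A value of Grin2b was 0.16. Unadjusted p was below 0.05 for Grin1 and Grin2a in Group A (7.45% of genes) and for all 3 members in Group B (10.7%). The difference of the cosines was 0.16 ± 0.11 for Grin1 (adjusted p = 0.893, and 0.25 without CT3 of Group B) and 0.20 ± 0.20 for Grin2b (adjusted p = 0.935).

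Subjective night (CT12 to CT21) was also set against subjective day (CT0 to CT9), which assumes no curve. In Group A, Grin1 averaged 123 ± 8.58 CPM by day and 145 ± 5.84 by night (SD, 4 libraries each). In Group B it averaged 135 ± 9.55 by day and 154 ± 6.59 by night. Every night library of Grin1 lay above every day library of its group in both groups, as was the case for 25 genes (0.183%). For each group alone this held for 1.83% of genes in Group A and 2.92% in Group B. The night-to-day log2 difference of Grin1 was 0.24 ± 0.059 for Group A (edgeR, adjusted p = 0.290) and 0.19 ± 0.058 for Group B (adjusted p = 0.292). No member passed correction in either group, where edgeR called 0 genes (0%) in Group A and 1 gene (0.00731%) in Group B, against 20 and 45 in DESeq2, none of them a member. Unadjusted p was below 0.05 for Grin1 and Grin2a in Group A (7.98% of genes) and for Grin1 in Group B (8.79%).

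Grin2a lay the other way in Group A, where every day library exceeded every night library, as in 2.18% of genes. It averaged 4.35 ± 0.969 CPM by day and 2.46 ± 0.303 by night in Group A, a night-to-day log2 difference of -0.82 ± 0.32 (adjusted p = 0.505). In Group B it averaged 2.45 ± 1.11 by day and 3.66 ± 1.69 by night, with overlapping values and a difference of 0.59 ± 0.32 (adjusted p = 0.632). Those 2 differences were 1.42 ± 0.46 apart on the log2 scale (rank 51 of 13685 by p, adjusted p = 0.997), and it was the only member with an unadjusted p below 0.05 there, as had 4.16% of genes (0% passed correction). Without CT15 of Group B the difference in Group B was 0.24, and without CT0 of Group B it was 0.93. Grin2b averaged 177 ± 33.8 CPM by day and 203 ± 19.7 by night in Group A, and 183 ± 19.97 by day and 213 ± 24.7 by night in Group B. Its day and night libraries overlapped in both groups, with log2 differences of 0.20 ± 0.11 and 0.22 ± 0.11 (adjusted p = 0.718 and 0.600). The Group A difference of Grin2b was 0.099 without CT6 and 0.32 without CT0, and that of Group B was 0.14 without CT21.

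**Figure D3:**
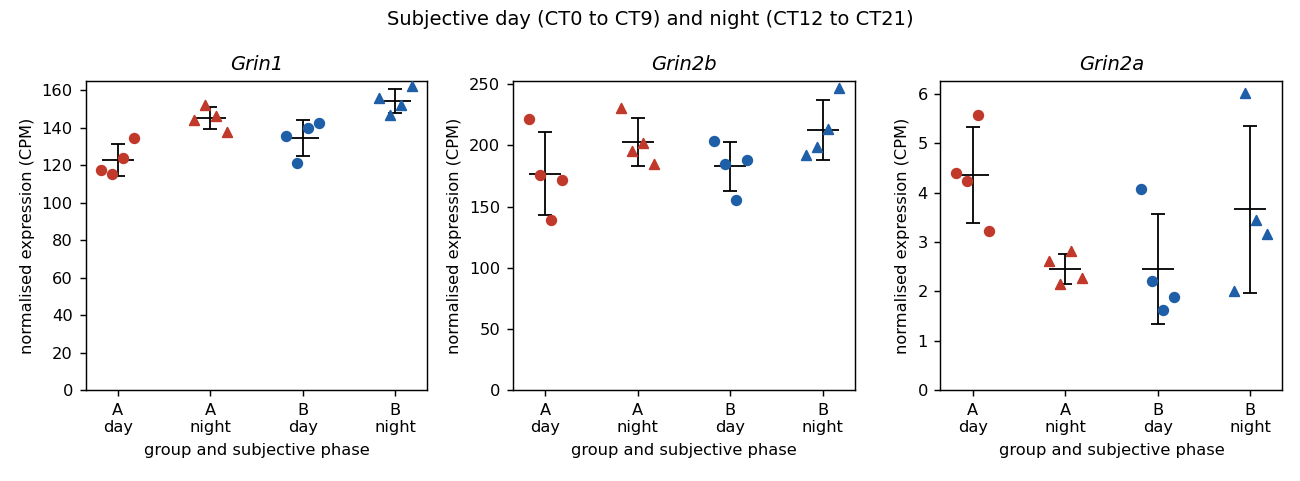
Normalised expression (CPM, linear axis from 0) of each subunit by group and subjective phase, with day libraries as circles, night libraries as triangles, Group A in red, Group B in blue, and the mean with its SD in black (4 libraries each). Night lies above day without overlap for Grin1 in both groups, and day lies above night without overlap for Grin2a in Group A alone among the panels.

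The groups were then compared irrespective of time. No member passed the test (0 of 3 in edgeR, none at an unadjusted p below 0.05, which 5.81% of genes reached, and 0 of 3 in DESeq2), and no gene was called (0%). Once time was modelled, Grin1 had an unadjusted p below 0.05, both with circadian time as a replicate block (adjusted p = 0.519) and with a cosine in each group (adjusted p = 0.493). Each of these edgeR fits called 0 of 13685 genes. The share of all genes below an unadjusted 0.05 was not counted for them, so whether Grin1 stood out there is not known. Grin1 averaged 134 ± 13.8 CPM over the 8 libraries of Group A and 145 ± 12.9 (SD) over the 8 of Group B, a log2 difference of 0.11 ± 0.062 (edgeR, adjusted p = 0.885). Group B was higher at 7 of the 8 circadian times, the exception being CT15. Grin2b averaged 190 ± 29.2 CPM in Group A and 198 ± 26.2 in Group B (0.057 ± 0.088, adjusted p = 0.958) and was higher in Group B at 6 of 8 times. Grin2a averaged 3.41 ± 1.21 CPM in Group A and 3.05 ± 1.47 in Group B (-0.18 ± 0.27, adjusted p = 0.958) and was higher in Group B at 3 of 8 times. Without CT15 of Group B the Grin2a difference was -0.39, and without CT6 of Group A it was -0.039.

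Split by phase, the largest difference between groups belonged to Grin2a by day. Group B against Group A by day was a log2 difference of -0.85 ± 0.32 (adjusted p = 0.769) and at night its difference was 0.56 ± 0.33 (adjusted p = 0.907), or 0.21 without CT15 of Group B. By day the Grin1 difference was 0.14 ± 0.059 (adjusted p = 0.823). At night the Grin1 difference was 0.088 ± 0.058 (adjusted p = 0.913). The Grin2b difference was 0.046 ± 0.11 by day (adjusted p = 0.999) and 0.066 ± 0.11 at night (adjusted p = 0.960). Unadjusted p was below 0.05 for Grin1 and Grin2a by day (5.63% of genes) and for no member at night (5.47%). Here edgeR called no gene (0%), while DESeq2 called 6 genes by day and 4 at night. By day its adjusted p was 0.658 for Grin2a and 0.838 for Grin1.

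Genes were also sorted by model selection after dryR, in which the Bayes information criterion weight (BICW) shares a weight of 1 among 5 models, namely no rhythm, a rhythm of Group A alone (Arhy), one of Group B alone (Brhy), one common to both (ABsync) and separate ones (ABdiff). A model was assigned at a BICW above 0.5. Grin1 was assigned to ABsync with a BICW of 0.856, as were 5.03% of genes, and the next model was ABdiff with 0.118. Grin2b was also assigned to ABsync, at a lower BICW of 0.636. Grin2a was assigned to ABdiff with a BICW of 0.640, a class that held 42 genes (0.307%), and the next model was Brhy with 0.247. The BICW is a relative weight and not a test.

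Each of these assignments hung on particular libraries. Without CT3 of Group B, Grin1 went to Arhy (BICW 0.507) and its ABsync weight was 0.339. Without CT6 of Group A, Grin2b went to Brhy (0.661), and without CT6 of Group B its ABsync weight was 0.40. For Grin2a the ABdiff weight was 0.273 without CT6 of Group A, where Brhy led (0.578). Without CT15 of Group A the ABdiff weight of Grin2a was 0.40, and Brhy led there too (0.472). The ABdiff weight of Grin2a was 0.388 without CT6 of Group B and 0.456 without CT9 of Group B, the deepest library. With all libraries thinned to the smallest total, the ABdiff weight of Grin2a was 0.540.

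**Figure D4:**
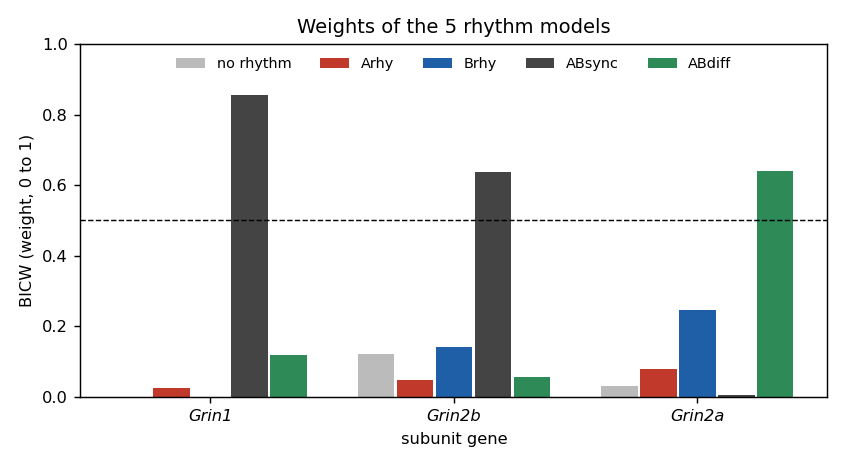
BICW (bars from 0, scale 0 to 1) of the 5 rhythm models for Grin1, Grin2b and Grin2a over all 16 libraries, with the threshold of 0.5 dashed. ABsync leads for Grin1 (0.856) and Grin2b (0.636), and ABdiff leads for Grin2a (0.640).

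The likeness of the time courses in the independent litters of the groups was measured over the 8 circadian times, a measure chosen after the values were seen. For Grin1 the correlation of Group A with Group B was r = 0.79 (exact permutation test, two-sided, p = 0.0152, adjusted over 3 members 0.0455), with a Spearman's rho of 0.76 (exact permutation p = 0.0368, adjusted 0.110). The permutation ignores the order of the times. Neighbouring times can be alike, so this p can be too small and is not a test of a shared rhythm. Only 1.37% of genes had a higher r, and the median over all genes was 0.058. The relation rested on the lowest times, since without CT0 and CT3 it was r = 0.46 (exact permutation p = 0.360). For Grin2b r was 0.55 (exact permutation p = 0.146) and rho 0.57 (p = 0.151), and 10.3% of genes were higher. For Grin2a r was -0.51 (exact permutation p = 0.195) and rho -0.48 (p = 0.243), and 91.9% of genes were higher.

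The ratio of subunit transcripts within a library, which needs no scaling between libraries, was compared between groups. The mean log2 ratio of Grin2b to Grin1 was 0.50 ± 0.23 for Group A and 0.45 ± 0.16 for Group B (SD, 8 libraries each), a difference of -0.049 (exact permutation test, two-sided, p = 0.630, adjusted over 3 ratios 0.630). The lowest ratio was at CT6 of Group B and the highest at CT0 of Group A. That of Grin2a to Grin2b was -5.82 ± 0.63 for Group A and -6.08 ± 0.54 for Group B (exact permutation p = 0.380, adjusted 0.570). It was highest at CT6 of Group A, where Grin2a was high and Grin2b at its lowest, and lowest at CT9 of Group B. The ratio of Grin2a to Grin1 differed by -0.32 (exact permutation p = 0.315, adjusted 0.570). These ratios are of CPM, not of transcripts per length. No difference between the groups exceeded the spread of the libraries by this test, and that spread holds both time and litter. With the groups compared within circadian times, no ratio passed either.

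**Figure D5:**
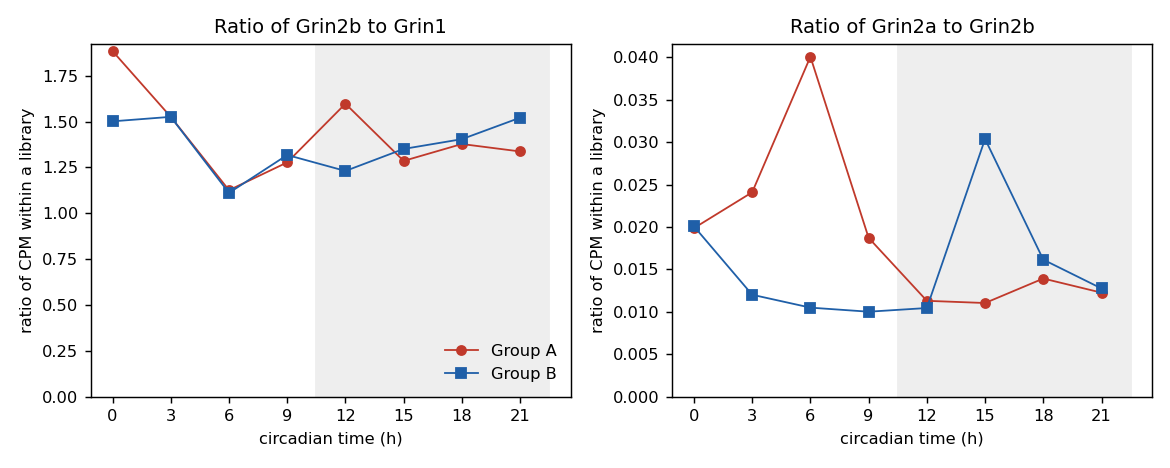
Ratio of CPM within a library (linear axes from 0) for Grin2b to Grin1 and for Grin2a to Grin2b against circadian time in hours, with Group A in red and Group B in blue. The shaded band holds the night libraries (CT12 to CT21) and starts shortly before CT12. The ratio of Grin2b to Grin1 is lowest at CT6 in both groups, while that of Grin2a to Grin2b is highest at CT6 in Group A and at CT15 in Group B.

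Whether the subunits varied together was examined over the 16 libraries, which differ in both time and litter. Grin1 and Grin2b had r = 0.44 (permutation test, p = 0.0844, adjusted over 3 pairs 0.253) and a rho of 0.49 (permutation p = 0.0582, adjusted 0.175). Without CT0 and CT3 of Group A, the libraries farthest from the median of Grin1, r was 0.67 (permutation p = 0.00850) and rho 0.66 (p = 0.0134). On residuals from a common cosine and the group means, r was 0.031 (permutation p = 0.909), so the pair showed little correlation once the fitted common time course was removed. Among genes with a mean of at least 5 CPM, 12.2% had a higher r with Grin1. Grin1 and Grin2a had r = -0.34 (permutation p = 0.191, adjusted 0.287) and a rho of -0.31 (p = 0.245), with r = -0.15 without the same libraries. Grin2a and Grin2b had r = 0.012 (permutation p = 0.967) and a rho of 0.17 (p = 0.533), with r = 0.42 without CT15 of Group B and CT6 of Group A (permutation p = 0.132).

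The pairs were also examined within each group. In Group A, Grin1 and Grin2a were opposed, with r = -0.85 (exact permutation p = 0.0107, adjusted over 3 pairs 0.0321) and a rho of -0.81 (exact permutation p = 0.0218, adjusted 0.0653). The adjustment covers the pairs of 1 group only. For the r within a group, no share of all genes was computed and no library was left out. The permutation ignores the order of the times. This r also restates the opposite day and night values of Grin1 and Grin2a in the same libraries, given above. In Group B the same pair had r = 0.18 (exact permutation p = 0.674), and the difference between the groups was not tested. Grin1 and Grin2b had r = 0.33 in Group A (exact permutation p = 0.434) and r = 0.55 in Group B (exact permutation p = 0.151). Grin2a and Grin2b had r = -0.51 in Group A (exact permutation p = 0.201) and r = 0.56 in Group B (exact permutation p = 0.152).

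The genes with a profile most like that of each member were sought among 11087 genes with a mean of at least 5 CPM, by Pearson's r of log2 CPM over the 16 libraries. For Grin1 the closest was ENSRNOG00000054204 (r = 0.94), and for Grin2b it was ENSRNOG00000052840 (r = 0.96). For Grin2a the highest r was 0.79. Its coefficient of variation from counting was 16.3%, against 2.46% for Grin1 and 2.09% for Grin2b. Such counting error limits any r with Grin2a, so the lower value does not show a profile unlike other genes. These r are the highest of many and are given as a description.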

How the data were processed

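Fetal SCN RNA was sequenced in 16 libraries (rRNA depletion, polyA enrichment, a stranded low-input kit, single-end reads). The authors mapped reads to rn6 with HISAT2 2.1.0 and named Salmon and StringTie for counting. They deposited counts per Ensembl gene, without normalization or filter. The strand setting of the counting is not given in the sources used here, so antisense reads cannot be told apart. All 16 columns matched a sample by group and circadian time, and 0 columns were left over.

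The further analysis used R 4.3.3, edgeR 4.0.16, DESeq2 1.42.0, Python 3.11.15 and SciPy 1.17.1. The filter on low values was 1.5 CPM in 3 or more libraries. CPM are TMM-scaled, with 0.1 CPM added before log2 for ratios and correlations. Tests were edgeR's quasi-likelihood tests fitted over all kept genes, with Benjamini-Hochberg adjustment over them and a threshold of 0.05. Peak-to-trough differences and peak times were taken from fitted cosine and sine terms with a 24-h period, with delta-method SEs. BICW used DESeq2 size factors and dispersions in 5 negative binomial models. The group, cosine and model-selection fits were run on simulated counts with known effects. The permutation tests of ratios and correlations were not. Litters are the replicates.

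The members and lists were chosen with earlier results of these data known. The named genes were the members and, for each, the genes with the highest r, of which at most 2 identifiers are printed because no table used here pairs identifiers with symbols. For that reason the related gene lists, the cell type markers and a neuron-marker covariate were not analysed here. Alternatives were DESeq2, other size factors, library totals, other filters, thinning, each library left out, circadian time as a block, cosines or the first principal component as covariates, a straight line, each group alone, Gaussian fits and another pseudocount.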

Additional observations from a re-analysis of the deposited data

How the results depend on the processing

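Of the alternatives other than leaving out a library, DESeq2 moved 2 results past the threshold, the common cosine of Grin2b (0.38) and the cosine of Grin1 in Group A (0.39). The correlation of the Grin1 profiles of the groups lost its call without CT0 and CT3 (0.46). The correlation of Grin2a with Grin2b, near 0, changed sign to -0.016 with CPM from library totals and to -0.065 on residuals from a common cosine. The other 220 values kept their side of the threshold and, where they have a sign, their direction. A peak-to-trough size has none, so the straight line of Grin2a (-0.33) has no direction to compare. The common cosine called 47 genes in edgeR, 251 in DESeq2, 137 with the first principal component and 78 as a straight line. DESeq2 called 24 genes for the cosine in Group A (edgeR 1) and 133 for that in Group B (edgeR 13). Without a filter edgeR called 22 genes for night against day in Group A and 19 in Group B, and 22 for the groups by day and 6 at night.

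With each library left out, 589 of the values kept both. The common cosine of Grin1 ranged from 0.296 to 0.370 and lost its call without 9 libraries. BICW ranged from 0.339 to 0.915 for Grin1 (ABsync), from 0.242 to 0.927 for Grin2b (ABsync) and from 0.273 to 0.690 for Grin2a (ABdiff). Signs of small Grin2b values turned, namely Group B against Group A by day (-0.056 to 0.17) and at night (-0.013 to 0.13), the difference of night against day between groups (-0.11 to 0.12) and the ratio to Grin1 (-0.095 to 0.011). The difference of the Grin2b cosines ranged in size from 0.062 to 0.41, and its peak moved from CT23.0 to CT16.0 without CT12 of Group A. The correlation of Grin1 with Grin2b ranged from 0.31 to 0.64 and passed without CT0 of Group A. That of Grin2a with Grin2b ranged from -0.18 to 0.36. In all, 22 of 39 values moved by over 1.5 times without at least 1 library, among them the Grin2a to Grin2b ratio between groups (-0.42 to -0.095) and the common cosine of Grin2a (0.23 to 0.74). The cause was not tested.

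With circadian time as a replicate block, Group B against Group A was 0.11 for Grin1 (edgeR, adjusted p = 0.519), -0.21 for Grin2a and 0.062 for Grin2b. No adjusted call changed. Grin1 then had an unadjusted p below 0.05, but the share of all genes that did so was not counted. Libraries of the same circadian time share only that time. Their deviations from the group means correlated at -0.17 to 0.14 over the 8 pairs, and 1 of 8 Group A libraries correlated best with its own time. Counts of 21 to 67 limit Grin2a.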
